A study of Mus musculus with 3 samples.

Results

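Loci with long-range Sp9 peaks are gene names to which the authors gave 3 or more Sp9 peaks, all on 1 assembled chromosome, with at least 500 kb from the start of the first peak to the end of the last. There were 256 such loci with 1306 peaks, among 13350 gene names with 19880 peaks on assembled chromosomes. They were 1.92% of all names and 18.1% of the 1413 names with 3 or more peaks on 1 chromosome. The other 1157 of those names, with 4269 peaks spread over less than 500 kb, are called compact loci here. The loci were thus chosen by the number, positions and span of their peaks, so these measures are described and not tested.

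The chromatin came from olfactory bulbs of CD1 mice at postnatal day 0 to 2, crosslinked for 10 min with 1% formaldehyde and sheared into pieces 200 to 1000 bp long. Sp9 was immunoprecipitated with a homemade antibody in 2 libraries, and 1 library of input chromatin, made without antibody, was the control. Reads were paired ends of 150 bases. All 3 libraries share tissue, strain and age, no genotype or treatment is named for any of them, and the labels do not say whether the immunoprecipitations came from separate litters. The values are those of a single deposited list of peaks shared by the immunoprecipitations, with 1 score for each peak and no value for each library. No spread between replicates, no comparison of groups and no test could therefore be had for any locus, and the depth is unknown. The bulb is a mixture of cells and expression was not measured, so a peak cannot be placed in a cell type. Of 18 genes that mark glia, blood vessels, microglia or glutamatergic neurons, 11 (61.1%) had a peak and 0 had 3 or more. Among all 21900 coding genes, 12107 had a peak and 1223 had 3 or more. With so few marker genes, these counts do not set them apart from other coding genes.

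Sp9 is a zinc finger transcription factor of the Sp family, whose members bind GC-rich boxes in promoters and enhancers. With its relative Sp8 it is known for its part in the development of olfactory bulb interneurons, which are born in the ganglionic eminences and their postnatal successor and migrate into the bulb. Enhancers can lie far from the promoter they act on, inside the gene, in a neighbouring gene or in the stretch between genes. A peak that carries a gene's name was annotated to that gene and was not shown to act on it.

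The promoter windows of 4 long-range loci are shown because they differ in motif content around the starts of these genes. Each is the first window listed for the gene in a RefSeq table of build GRCm38.p6, covering 250 bases before to 50 bases after the annotated start and written 5′ to 3′ as the table gives it. The peaks are in build mm9, so it is not known whether a peak covers any of these windows. Capitals mark every GC box (GGGCGG, or CCGCCC on the other strand), the core site of Sp factors, and every CACCC box (CACCC, or GGGTG on the other strand). A match is a string of letters and not a measured binding site. No GC box overlaps a CACCC box in these windows, while 3 neighbouring CACCC boxes of Slitrk2 share their end bases.
Sox11, chr12:27342669-27342968, minus strand: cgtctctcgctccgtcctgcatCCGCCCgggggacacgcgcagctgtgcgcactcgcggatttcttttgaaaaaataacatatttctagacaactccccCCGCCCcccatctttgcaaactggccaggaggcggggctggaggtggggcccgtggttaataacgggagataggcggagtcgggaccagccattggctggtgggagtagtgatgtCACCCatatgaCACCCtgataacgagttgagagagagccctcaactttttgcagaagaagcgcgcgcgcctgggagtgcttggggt
Ctnnd2, chr15:30172284-30172583, plus strand: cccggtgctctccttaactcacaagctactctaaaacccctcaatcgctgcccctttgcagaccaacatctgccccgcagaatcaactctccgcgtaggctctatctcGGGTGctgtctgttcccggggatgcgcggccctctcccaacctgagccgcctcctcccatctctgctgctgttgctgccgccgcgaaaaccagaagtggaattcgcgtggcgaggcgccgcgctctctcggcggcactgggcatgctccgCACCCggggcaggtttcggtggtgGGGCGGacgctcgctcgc
Slitrk2, chrX:66649068-66649367, plus strand: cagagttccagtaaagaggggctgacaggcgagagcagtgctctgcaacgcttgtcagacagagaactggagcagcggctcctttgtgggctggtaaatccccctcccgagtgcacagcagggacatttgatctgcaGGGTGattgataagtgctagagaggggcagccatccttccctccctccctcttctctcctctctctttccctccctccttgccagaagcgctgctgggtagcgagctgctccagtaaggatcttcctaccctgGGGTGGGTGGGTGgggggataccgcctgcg
Lrrc4c, chr2:96317919-96318218, plus strand: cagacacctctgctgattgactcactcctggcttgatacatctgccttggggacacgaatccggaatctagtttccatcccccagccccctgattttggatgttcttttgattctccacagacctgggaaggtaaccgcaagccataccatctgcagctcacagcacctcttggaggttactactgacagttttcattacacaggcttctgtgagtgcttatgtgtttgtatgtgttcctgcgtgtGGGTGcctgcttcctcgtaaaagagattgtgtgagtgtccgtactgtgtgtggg

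Sox11 encodes a neurogenic HMG-box factor, Ctnnd2 the synaptic catenin delta-catenin, Slitrk2 a leucine-rich-repeat synaptic adhesion protein and Lrrc4c the netrin-G ligand NGL-1. The Sox11 window held 2 GC boxes and 2 CACCC boxes, and the Ctnnd2 window 1 and 2. The windows of Slitrk2 and Lrrc4c held 0 GC boxes, with 4 CACCC boxes in Slitrk2 and 1 in Lrrc4c. Among 196 long-range loci named for coding genes, 155 had at least 1 window in the table. A GC box was present in at least 1 window of 84 of them (54.2%), against 70.9% of compact coding genes, 68.1% of coding genes with any peak and 49.2% of all coding genes. A CACCC box was present for 99 (63.9%), against 73.1% of compact coding genes and 61.7% of all coding genes. The GC box was thus less frequent in these windows for long-range loci than for compact loci, and no test was made of the difference.

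MicroRNA genes named 7 of the long-range loci, and the mature sequences of 5 of them are in the RefSeq table. They are shown because the seed decides which transcripts a microRNA pairs with. Capitals mark the seed, bases 2 to 8.
mmu-miR-6350: uAGCAGGUgcauuauaaauau
mmu-miR-6342: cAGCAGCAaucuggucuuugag
mmu-miR-592-5p: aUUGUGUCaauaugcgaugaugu
mmu-miR-592-3p: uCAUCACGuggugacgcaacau
mmu-miR-6370: gCAGGAACagcaaaggggaag
mmu-miR-1187: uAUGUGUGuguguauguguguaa

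The 6 mature sequences have 6 distinct seeds. Mir6350 on chromosome 1 had the highest peak among the microRNA loci, with a score of 1525 at the first peak and scores of 166, 142, 100.4 and 649.6 at 91.9, 603, 795 and 917 kb from it. Mir592 on chromosome 6 had scores of 257, 129 and 118 over 678 kb. Mir6342, Mir6370 and Mir1187 had highest scores of 505, 274 and 273 over 699.5, 544 and 728 kb. Mir6336 and Mir3106, the other microRNA names, spanned 1002 and 576 kb. All 7 had between 3 and 5 peaks.

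**Figure D1:**
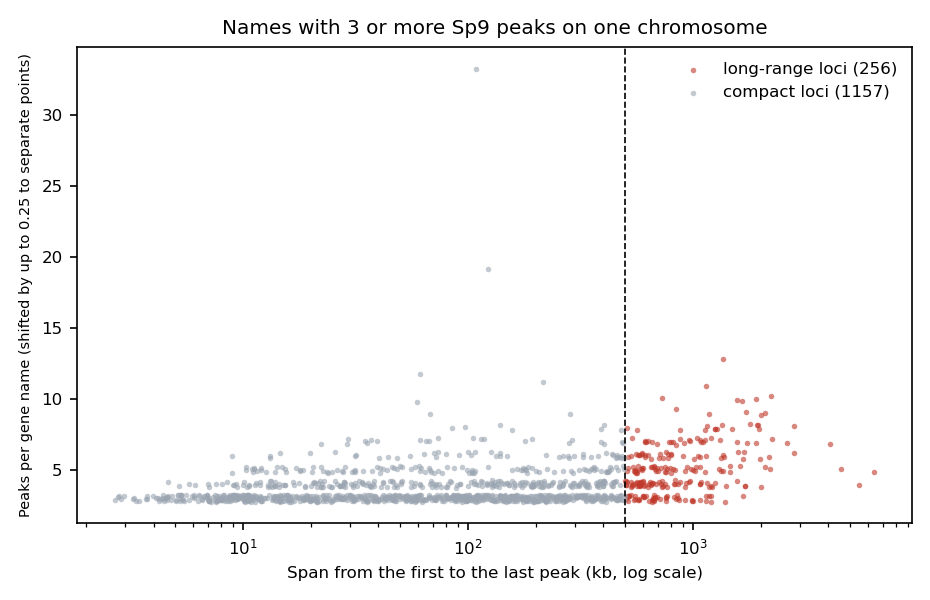
Each point is 1 gene name with 3 or more Sp9 peaks on 1 chromosome. The horizontal axis is the span from the first to the last peak in kb on a log scale, and the vertical axis is the number of peaks, shifted slightly to separate points. The dashed line marks 500 kb, with the 256 long-range loci in red to its right and the 1157 compact loci in grey to its left. The names with the most peaks, up to 33, are compact, while long-range loci reach 13.

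Spans of the long-range loci had a median of 763 kb (quartiles 600.2 and 1147 kb), with 171 below 1000 kb, 70 between 1000 and 2000 kb and 15 longer. The median span of the compact loci was 67.0 kb. Long-range loci held a median of 5 peaks and at most 13, and compact loci a median of 3 and at most 33. The loci just inside the limit were A330049N07Rik (500.8 kb), Gm41 (502 kb) and Mecom (504 kb). Those just outside were 4930428D20Rik (498 kb), Foxp1 (495 kb) and Unc5d (494 kb). Mecom and Foxp1 both encode transcription factors, and Unc5d a netrin receptor. Their highest scores were 914 for Mecom, 619 for Foxp1 and 581 for Unc5d, and scores on both sides of the limit overlapped.

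Peaks carrying 1 name mostly formed runs that no other name interrupted. In 245 of the 256 loci no peak of another name lay between the first and the last peak, and in 11 (4.30%) at least 1 did, against 9 compact loci (0.778%). The widest gap took a median of 51.4% of the span in long-range loci and 60.2% in compact loci. It was over 50% of the span in 136 long-range loci (53.1%), against 816 compact loci (70.5%). The order differed by peak number, of which long-range loci had more. With 3 peaks the widest gap took a median of 74.4% of the span in long-range loci and 66.1% in compact loci, and it was over 50% in 98.0% of long-range loci and 81.3% of compact loci. With 3 peaks the wider gap always takes at least 50% of the summed gaps, so these high shares follow from arithmetic. Peak widths count in the span but not in the gaps, which lowers the share most in short spans. The share thus depends in part on the span, by which the loci were chosen. With 4 peaks the medians were 58.2% in long-range loci and 54.4% in compact loci, and the shares over 50% were 71.2% of long-range loci and 58.6% of compact loci. With 5 or more peaks the medians were 43.2% in long-range loci and 46.3% in compact loci, and the shares over 50% were 28.1% of long-range loci and 44.2% of compact loci. In 207 long-range loci all peaks lay more than 10 kb from each other. With the end peak that shortens the locus most left out, 107 loci still spanned 500 kb or more and 149 did not. The 149 thus met the limit through a single end peak.

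The gene order could be checked against the RefSeq table, which gives names and order but in another build. All 196 coding loci lay on the chromosome of their gene. Among 294 coding names on the flanking peaks, 216 (73.5%) were those of the directly neighbouring coding gene and 278 (94.6%) lay within 3 coding genes. For 88 of the coding loci (44.9%) a directly neighbouring coding gene on either or both sides had no peak at all, and both neighbours had none for 16. Of all 21900 coding genes, 9793 had no peak. That is a count of single genes, unlike the counts of loci with a neighbour on each side, so their shares cannot be compared. The counts of loci by their neighbours were not made for compact loci, so they do not set long-range loci apart. Gene lengths and distances between genes in mm9 were not analysed here, so their part in the spans was not tested.

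Synaptic adhesion molecules and organisers made up the largest group. They join pre- and postsynaptic membranes, set which neurons pair up, or guide the contact of growing neurites. Of 87 such genes found in the RefSeq table, 81 had a peak and 39 had 3 or more, and 31 of these 39 (79.5%) were long-range loci. The same share was 18.1% over all names with 3 or more peaks and 16.0% over coding names. The 31 loci held 175 peaks, their median span was 1176 kb and their highest scores ran between 156 and 1513. The list was drawn up with earlier results of these peaks known, so its share is a description. The 8 genes with 3 or more peaks that fell short were Cntn6, Igsf21, Il1rapl1, Lrrn3, Nell1, Nrxn2, Sdk1 and Slitrk4, with spans between 61.0 kb for Nrxn2 and 467 kb for Il1rapl1.

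**Figure D2:**
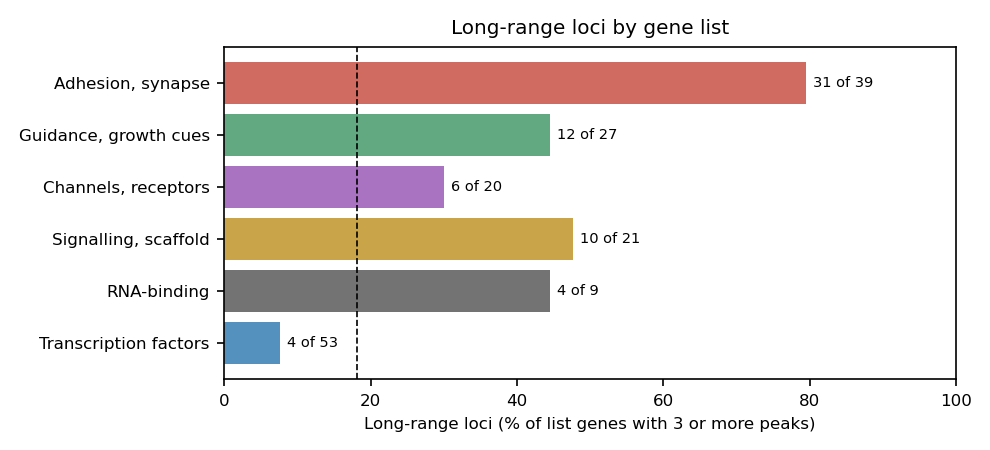
Bars give, for each of 6 gene lists, the percentage of genes with 3 or more peaks that were long-range loci, with the counts beside them. The dashed line is the 18.1% over all names with 3 or more peaks. Adhesion and synaptic genes stand at 31 of 39 and developmental transcription factors at 4 of 53.

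Lrrc4c had the longest run of peaks without another name inside, 4051 kb at chr2:95254126-99305491 (mm9). Its 7 peaks scored 156, 119, 88.5, 113, 120.3, 102 and 118 at 0, 2424, 2893, 2975, 3015, 3218 and 4051 kb from the first. No peak of Lrrc4c reached the list median of 210.1, and 2423 kb of the span held none. It was a locus of weak and scattered peaks.

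Cntnap5a, a contactin-associated transmembrane protein of the neurexin superfamily, spanned 2827 kb at chr1:115931923-118759046. Its 8 peaks scored 108, 440.1, 449, 162, 199, 129, 815 and 638 at 0, 147, 522, 735, 773, 1764, 2327 and 2826 kb. Strong peaks lay both near the first end and at the far end, with weaker ones between. Its relative Cntnap2, which clusters potassium channels along axons, spanned 2626 kb with 7 peaks. They scored 254, 89.6, 89.6, 287, 102, 114 and 213, so no single peak stood out. All 3 members of this family with 3 or more peaks were long-range loci, the last being Cntnap5c with 3 peaks over 514 kb.

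Lingo2, a leucine-rich-repeat and immunoglobulin protein of neurons, had 10 peaks over 2216 kb. The highest, 416, was the first peak, and the lowest was 86.6. The other peaks above the list median scored 216 at 1408 kb, 346 at 1682 kb and 255 at 2069 kb. Nlgn1, the neuroligin of excitatory synapses, had 9 peaks over 2095 kb with the highest, 452, at 1874 kb. Of the 3 neurexins, the presynaptic partners of neuroligins, none was a long-range locus although all had a peak. Slitrk2 was short for the group at 634 kb but held its highest score, 1513, at 519 kb, while its other 6 peaks scored between 85.1 and 316.

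Cadherins, calcium-dependent adhesion molecules, recurred among the loci. This grouping by family was made after the values had been seen. Of 19 Cdh genes with a peak, 7 had 3 or more and 5 were long-range loci, namely Cdh6, Cdh7, Cdh9, Cdh11 and Cdh20. They held 26 peaks and spanned 1395 to 2209 kb. Cdh9 scored 91.5, 140, 120, 87.7 and 863, with the last peak 2207 kb from the first. Its highest peak thus stood alone at 1 end and the other 4 were weak. Cdh20 had 10 peaks over 1910.5 kb, the highest 623 at 1902 kb and all others at or below 316. Among protocadherins outside the clusters, Pcdh9, Pcdh15, Pcdh17 and Pcdh19 were long-range loci. Pcdh19, a protocadherin of the X chromosome, had 9 peaks over 1729 kb with scores between 84.8 and 200.3. All of its peaks were below the list median, as were the 5 of Pcdh17, which scored up to 190 over 2082 kb.

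**Figure D3:**
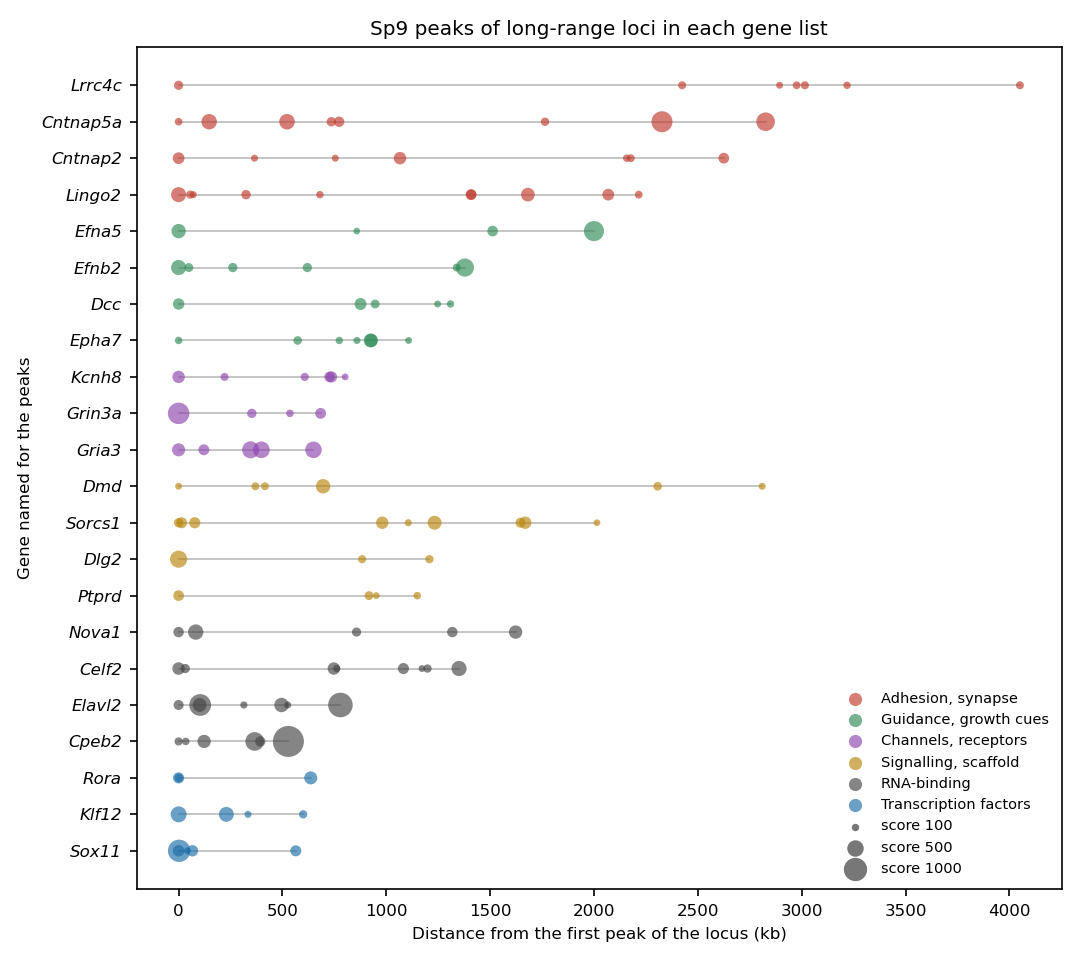
Each row is 1 locus and each dot is 1 Sp9 peak, placed by its distance in kb from the first peak of the locus, with the dot's area following the peak score. Rows are among the longest loci of each gene list, at most 4 a list, coloured by list. Lrrc4c shows 7 small dots over 4051 kb, while Elavl2, Cpeb2 and Efna5 show their largest dot at the far end.

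Guidance cues, growth factors and their receptors steer axons and migrating neurons. Of 27 such genes with 3 or more peaks, 12 (44.4%) were long-range loci, with 63 peaks and a median span of 938 kb. Efna5, a membrane-anchored ephrin ligand, had 4 peaks over 2003 kb. They scored 381, 81.0, 209 and 744 at 0, 858, 1512 and 1999.8 kb, so the 2 strongest sat at opposite ends. Efnb2, a transmembrane ephrin, showed the same layout in 6 peaks over 1381 kb, with 419 at the first peak, 606 at 1378 kb and 120 to 160 between. Among the Eph receptors, Epha3, Epha6 and Epha7 were long-range loci. They made up 3 of the 4 EphA genes with 3 or more peaks, while 0 of 5 EphB genes had 3 or more. Epha3 scored 939 at 394 kb within 564 kb, and its other 7 peaks between 84.5 and 379.7. In Epha7 the 2 highest peaks, 363 and 317, lay 925 and 927 kb from the first over a span of 1108 kb.

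The netrin receptor gene Dcc had 5 peaks over 1309 kb from first to last start, with scores of 240, 264, 145, 88.5 and 101. Slit2, a secreted repellent of migrating neuroblasts, scored 235 at the first peak, then 220.3 and 85.3 at 819 and 823 kb. Fgf9, Fgf13 and Fgf14, of which Fgf9 is a secreted growth factor and the other two are intracellular modulators of sodium channels, spanned 517, 655 and 588 kb. Ligands and receptors alike were thus among the loci, with 3 to 8 peaks each.

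Ion channels and neurotransmitter receptors gave 6 long-range loci among 20 genes with 3 or more peaks (30.0%), with a median span of 667 kb. Gria3, an AMPA receptor subunit of the X chromosome, scored 316, 220.3, 536, 511 and 504 over 651 kb. It was 1 of 6 loci in which every peak was at or above the list median. Grin3a, an NMDA receptor subunit, carried 852 at the first peak, and its other 3 peaks scored between 106 and 218. Kcnh8, a voltage-gated potassium channel, had 6 peaks of 84.0 to 286 over 803 kb. Kcnd2, a potassium channel of the A-type current, reached 708 at the last of its 4 peaks.

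Scaffold, signalling and cytoskeletal genes of neurons gave 10 of 21 (47.6%), with 57 peaks and a median span of 937 kb. Dmd, which encodes dystrophin, had 6 peaks over 2810 kb, scored 85.1, 117, 115, 385, 137 and 90.9. Its widest gap of 1610 kb also held 3 peaks named Tsga8, itself a long-range locus. Sorcs1, a sorting receptor, had 9 peaks over 2015 kb with none above 358. Dlg2, the postsynaptic scaffold PSD-93, scored 542 at the first peak and 123 and 127 at 884 and 1208 kb. Ptprd, a receptor tyrosine phosphatase that organises synapses, had its highest of 213 at the first peak of 4 over 1150 kb. Ctnnd2 reached 971 at 109.9 kb within 596 kb.

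RNA-binding regulators gave 4 of 9 genes (44.4%). Cpeb2 and Elavl2 held some of the highest scores, while Nova1 and Celf2 stayed below the median highest score of 457 over long-range loci. Nova1, a neuronal splicing regulator, had 5 peaks over 1624 kb with a highest score of 432. Celf2, another splicing regulator, had 8 peaks over 1352 kb with a highest score of 422. Elavl2, which encodes the neuronal RNA-binding protein HuB, scored 186, 357, 872, 96.1, 384, 92.5 and 1111 at 0, 101, 104, 314, 495, 525 and 779 kb. Cpeb2, a regulator of polyadenylation and translation, scored 124, 103, 327, 642, 196 and 1774 at 0, 34.4, 123, 366, 393 and 529 kb. In Elavl2, Cpeb2 and Celf2 the highest peak was the last of the locus.

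Developmental transcription factors stood at the other end. Of 116 such genes, the longest of the lists, 109 had a peak and 53 had 3 or more. That share was like those of the adhesion list (39 of 87) and the RNA-binding list (9 of 20). Yet 4 of the 53 (7.55%) were long-range loci, against 18.1% of all names with 3 or more peaks. The median span of those 53 genes was 89.0 kb. Casz1 held 11 peaks within 215 kb, Pax2 7 within 73.5 kb, Bcl11b 6 within 91.5 kb, Neurog2 6 within 73.8 kb and Sox1 6 within 40.3 kb. These compact examples were chosen after their values were seen. Other factors, picked in the same way, came near the limit, such as Foxp1 (495 kb), Npas3 (460 kb) and Sox6 (446 kb). The 39 adhesion genes with 3 or more peaks had a median span of 969 kb. The part of gene length and gene spacing in this difference was not tested.

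Rora, Klf12 and Sox11 were among the 4 exceptions. Sox11 scored 244, 923, 87.2, 236 and 223 at 0, 2.48, 42.2, 66.9 and 564 kb, and without its last peak it would be a compact locus. Rora, an orphan nuclear receptor, had 226 and 135 within 1.15 kb and 313 at 636 kb, so its length also rests on 1 peak. Klf12, a repressor of the wider Sp and Krüppel-like family to which Sp9 belongs, scored 468, 408, 88.1 and 127 over 601 kb. The list does not hold every transcription factor among the loci. Atoh1 and Trps1, outside the list and chosen after their values were seen, had 5 peaks up to 397 over 722 kb and 6 peaks up to 260.3 over 1080.2 kb. Rarb, Isx and Mecom, also outside it and chosen in the same way, spanned 598, 556 and 504 kb.

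Of the 256 loci, 67 were in 1 of the 7 gene lists and 189 in none. The highest score of any long-range locus, 2437, belonged to Aga, a lysosomal enzyme gene, whose 4 peaks scored 2437, 107, 1593 and 113 over 661 kb, the third 533 kb from the first. Spanxn4, listed as a long noncoding RNA in the RefSeq table, reached 1751 at 31.9 kb and 666 at 403 kb among 8 peaks over 1250.1 kb. Cox7c, a subunit of cytochrome oxidase, scored 1462 at 172 kb while its other 3 peaks scored between 99.0 and 149. Brinp3, a gene of a family of neural cell-cycle inhibitors, had 7 peaks of 84.5 to 237 over 2257 kb. The most peaks belonged to 5730507C01Rik, with 13 of 80.5 to 757 over 1355 kb, and to Tsn, the gene of the nucleic-acid-binding protein translin, with 11 of 102 to 941 over 1144 kb. Lingo2, Cdh20, Tmem261, 2410018L13Rik and 1700030C10Rik followed with 10 each.

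The 3 longest spans were those of Gm10058 (6390.4 kb), Gm10486 (5489 kb) and Gm10488 (4555 kb), all on the X chromosome. Their peaks interleaved, and peaks of 11, 7 and 9 other names lay inside them. Their widest gaps were 5176, 4418 and 3346 kb, or 81.0%, 80.5% and 73.5% of the span. Gm7978 on chromosome 5, with 3 peaks and a gap of 1655 kb in a span of 1668 kb, also held 4 other names. Near-identical copies of such predicted genes can share reads and names, so these spans are uncertain as single loci. Among the 11 loci with another name inside, the others were Dmd, LOC100861615, Gm14296, Sema6d, Slc35b3, Gm2002 and Oxr1.

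Noncoding names were more common among the long-range loci. Coding genes named 196 (76.6%), against 1027 compact loci (88.8%) and 90.7% of all names. Long noncoding RNAs named 45 (17.6%), against 70 compact loci (6.05%) and 5.49% of all names. MicroRNAs named 7 (2.73%), against 37 (3.20%). The difference lay in the long noncoding RNAs, and it was not tested.

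**Figure D4:**
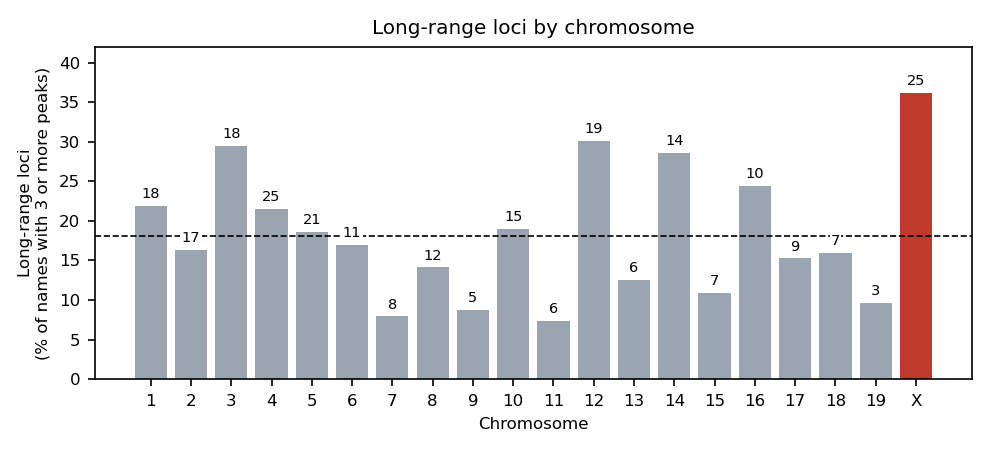
Bars give, for each chromosome, the percentage of names with 3 or more peaks that were long-range loci, with the number of long-range loci above each bar. The dashed line is the 18.1% over all chromosomes. The X chromosome, in red, stands highest with 25 loci, and chromosomes 7, 9 and 11 are lowest.

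Chromosomes differed in the share of their multi-peak names that were long-range loci. On the X chromosome 25 of 69 names (36.2%) were long-range, on chromosome 12 it was 19 of 63 (30.2%) and on chromosome 3 it was 18 of 61 (29.5%). The lowest shares were 6 of 82 (7.32%) on chromosome 11, 8 of 101 (7.92%) on chromosome 7 and 5 of 57 (8.77%) on chromosome 9. The X chromosome carried 9.77% of the long-range loci and 3.97% of all peaks. Its 134 long-range peaks had a median score of 151, against 175 for all of its peaks. Yet 6 of the 134 (4.48%) scored 1000 or more, against 1.39% of all peaks of the X chromosome. Gria3, Slitrk2, Pcdh19 and Dmd are among its loci, beside the predicted genes above.

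Some long-range loci followed each other along a chromosome. In 80 cases the next named locus was also long-range, which placed 139 of the 256 loci in 59 runs, 18 of them with 3 or more loci. The same count was not made for compact loci or for all names, so whether these runs are more frequent was not tested. Cdh7, Dsel, Cntnap5a and Tsn formed a run of 30 peaks over 9277 kb at chr1:110931186-120208047. Api5, Lrrc4c and Rag2 formed a run of 19 peaks over 7045 kb, in which the Rag2 part held scores of 886 and 1203 beside the weak peaks of Lrrc4c. Agtr1b, Tbl1xr1, Rprl2 and Nlgn1 held 23 peaks over 5711 kb. Adgrl3, a latrophilin that binds Flrt proteins, stood in a run of 4 with 1700017L05Rik, Mir1187 and Tecrl over 6089 kb. Related genes stood side by side as Cdh6 and Cdh9 over 4095 kb and as Sorcs3 and Sorcs1 over 3255 kb. In such runs the change of name along the peaks set where 1 locus ended and the next began.

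**Figure D5:**
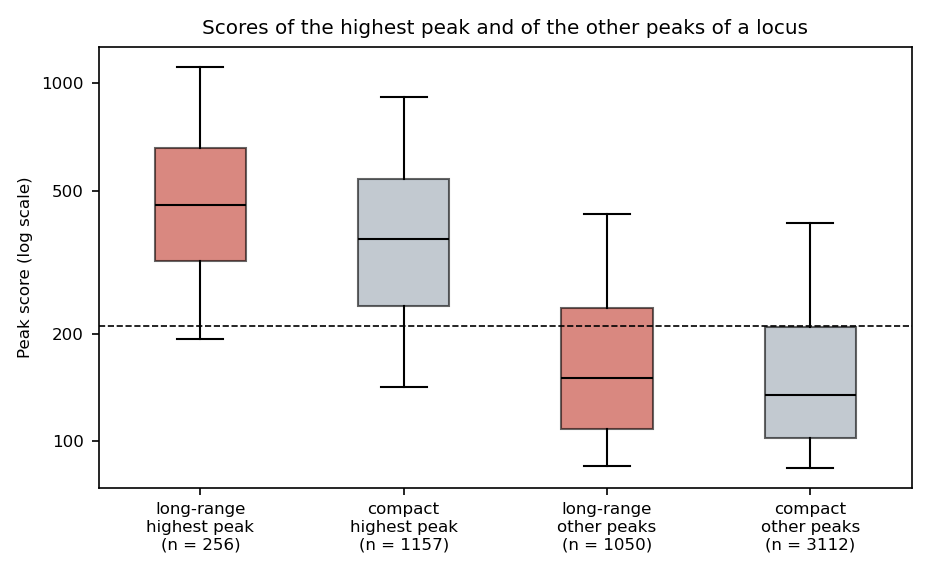
Boxes give the median and quartiles of the peak score on a log scale, with whiskers at the 5th and 95th percentiles, for the highest peak of each locus and for all other peaks. Long-range loci are red and compact loci grey, with n below each box, and the dashed line is the median of the list. The highest peaks have medians of 457 in long-range and 368 in compact loci, and the other peaks 151 in long-range and 135 in compact loci.

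Scores did not enter the choice of the loci. The score is the authors' own value for each peak, by a formula that the labels and the list do not state. The 1306 long-range peaks had a median score of 180.4 (quartiles 118 and 324), against 168 for compact peaks and 210.4 for all 19880 peaks. At or above the list median were 561 (43.0%, exact binomial interval 40.3% to 45.7% at 95%), against 39.9% of compact peaks and 50.1% of all peaks. The interval covers counting over peaks of 1 list and not replicates. Scores of 1000 or more were reached by 21 peaks (1.61%), against 58 compact peaks (1.36%) and 1.11% of all peaks. Widths were alike, with a median of 939 bp, against 933 bp in compact loci and 986 bp overall. Long-range peaks were as a body slightly weaker than the list and close to compact peaks.

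Within a locus the score was uneven. The highest peak had a median score of 457, against 368 in compact loci, and the median difference between the highest and the next was 143 in long-range loci against 127 in compact loci. Long-range loci held more peaks, so loci were also set side by side by peak number. With 3 peaks the median was 359 in long-range loci and 332 in compact loci. With 4 peaks it was 407 in long-range loci and 394 in compact loci, and with 5 or more 520.1 in long-range loci and 447 in compact loci. The medians were thus higher in long-range loci with 3 and with 4 peaks, with no test made, while among loci with 5 or more peaks the number itself still differed, with a median of 6 in long-range loci and 5 in compact loci. The peaks other than the highest had a median of 151 in long-range loci (n = 1050) and 135 in compact loci (n = 3112). The highest peak lay at an end of the locus in 129 long-range loci (50.4%), against 688 compact loci (59.5%), and this order turned when loci were split by peak number. With 3 peaks the share was 72.5% in long-range loci and 67.7% in compact loci, with 4 peaks 54.5% in long-range loci and 53.1% in compact loci, and with 5 or more 40.3% in long-range loci and 35.8% in compact loci. With 3 peaks all but the middle peak lie at an end, and end peaks are a smaller part of longer runs. A fall of these shares with peak number is thus expected by arithmetic. The highest peak scored 1000 or more in 19 long-range loci (7.42%), against 38 compact loci (3.28%). With 3 peaks that share was 1.96% in long-range loci and 2.34% in compact loci, with 4 peaks 4.55% in long-range loci and 2.93% in compact loci, and with 5 or more 10.8% in long-range loci and 7.37% in compact loci.

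The loci ranged between uniformly weak and uniformly strong. No peak reached the list median in 18 loci, Lrrc4c, Pcdh17, Pcdh19 and Gm10488 among them. Exactly 1 peak did so in 69 loci, among them Cdh9, Cox7c, Dlg2 and Dmd. In 6 loci all peaks did, namely Crim1, Fat4, Gm16998, Gria3, Msl3l2 and Slitrk5. Fat4, a giant cadherin, scored 628, 313 and 283 over 718 kb, and Slitrk5 254, 316 and 359 over 758 kb.

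Isolation of peaks follows from the spans and is given for scale. More than 100 kb from any other peak lay 640 long-range peaks (49.0%), against 369 compact peaks (8.64%) and 19.0% of all peaks. The isolated long-range peaks had a median score of 174 and the other long-range peaks 184. Over all peaks the order was the reverse, with 223 for isolated peaks and 207 for the rest. Of 962 gaps of 500 kb or more between neighbouring peaks, 104 lay inside a long-range locus, 26 inside another name and 832 between different names. Isolated and other long-range peaks thus both had medians below that of the list.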

How the data were processed

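Per the submitters' processing notes, Bowtie2 2.2.4 (a read aligner), MACS 1.4.2 (a peak caller) and the mouse build mm9 were named, without roles or settings. The authors deposited 1 list of 19979 shared peaks with positions, a peak score and a gene name for each. The deposited score is 1 value per peak, named for no library. Its formula, the rule for sharing and the rule for naming a gene are stated neither in the labels nor in the list. The deposited starts and ends, which have no unit other than bases, are printed as listed, and whether they count from 0 or 1 is not stated. The 99 peaks on unplaced sequence were left out.

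Names were grouped with Python 3.11.15 and pandas 2.3.3, and exact binomial intervals came from scipy 1.17.1. Gene class and order came from a RefSeq table (GRCm38.p6), none of whose gene coordinates were compared with the peaks; of the 256 names 245 matched by symbol, 9 by synonym and 2 (LOC100861615 and C130030K03Rik) not at all. The grouping was checked on simulated lists. The members and the 7 gene lists were chosen with earlier results of these data known. Named are the 10 longest loci, the 5 with most peaks, the 5 highest scores, the 5 widest gaps, the 3 on each side of the limit and up to 4 of each list, longest first; other names were chosen after their values were seen. Not every locus picked this way is reported. Spans are largest end minus smallest start. Distances to a peak are between starts. Alternatives were other limits on span and peak number, above-median peaks, merging within 10 kb, and loci with no other name inside. No test was made, since no library has a value of its own.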

Additional observations from a re-analysis of the deposited data

How the results depend on the processing

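The coding share stayed between 75.9% and 79.4% under all 7 alternatives (76.6% as deposited). Merging peaks within 10 kb gave 250 loci with 1237 peaks and left the other 7 summary values within their intervals. In 207 loci all peaks already lay more than 10 kb apart, so merging could not change those. A minimum of 1000 kb left 85 loci with 520 peaks, a median span of 1362 kb, 6 peaks a locus, a median score of 162, 38.7% of peaks at or above the list median and 9.41% of loci with another name inside. Peaks at or above the list median alone gave 66 loci with 253 peaks, a median span of 851 kb, a median score of 357, 100% above the median by construction, 1.52% with another name inside and a widest gap of 63.3% of the span. A minimum of 400 kb gave a median span of 669.7 kb, 4 or more peaks a widest gap of 47.7%, and excluding other names inside 0% by construction. An alternative chosen after seeing the data kept the 107 loci that pass without their end peak: 682 peaks, a median span of 1174 kb, 6 peaks a locus and a widest gap of 44.1%. The moves in span and number follow from the selection, and for the score and the other names inside the cause was not tested. No paired analysis was possible because the list holds no value for each library. Leaving out a library could not be run for the same reason, and neither false peaks nor the depth behind a score can be judged.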

Other observations

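Distant peaks also occurred under names with fewer peaks. Of 2360 names with exactly 2 peaks, 32 had them 500 kb or more apart on 1 chromosome. Tmeff2, a transmembrane protein with follistatin-like domains, had scores of 305 and 279 over 1607 kb. Edil3, a secreted integrin ligand, had scores of 362 and 171 over 1253 kb. Rbms3, an RNA-binding protein, had scores of 166 and 116 over 814 kb. The longest was Gm10921 on the X chromosome, 26172 kb with scores of 192 and 181, in the region of the predicted genes named above.

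Among names with 3 or more peaks, 2 had peaks on more than 1 chromosome and were not counted. The first was BC002163, with 2 peaks on chromosome 4 and 1 on chromosome 16, scored between 82.7 and 90.7. The other had the form of a calendar date and held 5 peaks on chromosome 8 and 1 on chromosome 1.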
